A study of Homo sapiens with 2 samples.

Results

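The genes described here are 9 components of class I phosphoinositide 3-kinase (PI3K) signaling, taken as the rows of the deposited gene tables that carry the symbols PIK3CA, PIK3CB, PIK3CD, PIK3CG, PIK3R1, PIK3R2, PIK3R5, PIK3AP1 and INPP5D, out of 57485 genes listed. All 9 were found in both tables. The series holds 2 RNA-seq libraries of ARP1, an established human multiple myeloma (MM) cell line, read in pairs of 150 bases after poly(A) selection. By their titles and the methods, both were made from cells carrying a lentiviral TRIPZ construct in which Dox (doxycycline) switches on an shRNA against the steroid 5α-reductase gene SRD5A1. Their labels differ in treatment, 1 untreated and 1 treated with Dox, and in genotype, since that of the Dox library names an shRNA against SRD5A2, so that which hairpin this library carried is not settled. The comparison asked which genes differ between these 2 states of the cells. The dose and duration of Dox for these libraries are not given in the sources used here, and neither is whether the cells were a clone or a pool. There is no library of Dox-treated cells without the hairpin, so Dox itself and the hairpin cannot be told apart. With 1 library per condition no difference below has a replicate check, and no p-value is given.

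SRD5A1 is the gene that the hairpin targets by the titles and the methods, though not by the genotype label of the Dox library. It had 1375 expected counts, or 13.04 FPKM (fragments per kilobase of transcript per 1000000 fragments), where the label says without Dox. Where the label says with Dox, it had 3013.99 expected counts, or 25.88 FPKM. Its RNA was therefore higher, not lower, in the Dox library. Every direction below rests on these labels, and whether they were exchanged cannot be told apart with these 2 libraries. The expected counts summed to 45918570 without Dox and 48728927 with Dox, so that 3 counts equal 0.0653 and 0.0616 per 1000000 counts. All 7 myeloma and plasma cell markers examined, among them SDC1, IRF4 and XBP1, lay between 15.73 and 834.39 FPKM in both libraries. The summed FPKM of the markers of other cell types, with 2 genes for B cells and 3 for each other type, was 1.42 and 1.06 for B cells, 0.31 and 0.22 for T cells (CD3D and CD2 at 0), 0.51 and 0.96 for myeloid cells, 1.97 and 1.66 for epithelial cells and 0.15 and 0.46 for fibroblasts (DCN at 0), without and with Dox.

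Class I PI3Ks are lipid kinases at the inner face of the plasma membrane. They add a phosphate to a membrane phosphoinositide, and the product recruits proteins such as the AKT kinases, which promote growth and survival and act upstream of mTOR. In class IA enzymes a catalytic subunit encoded by PIK3CA, PIK3CB or PIK3CD is held by a regulatory subunit encoded by genes such as PIK3R1 and PIK3R2, which stabilizes it and docks it to phosphorylated tyrosines of receptors and adaptors. The class IB catalytic subunit of PIK3CG is instead activated through G protein-coupled receptors and pairs with other regulatory subunits, one of which is encoded by PIK3R5. PIK3AP1 encodes an adaptor of B cells that links receptors to PI3K, and INPP5D encodes a lipid phosphatase of blood cells that removes a phosphate from the PI3K product. In MM, signaling by growth factors and cytokines of the bone marrow is known to pass in part through PI3K and AKT.

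The members lie on 8 chromosomes in the GRCh38 coordinates of GENCODE release 29. PIK3CA (ENSG00000121879.4, chromosome 3 from 179148114 to 179240093, forward strand) and PIK3CB (ENSG00000051382.8, chromosome 3 from 138652699 to 138834938, reverse strand) share a chromosome. PIK3CD (ENSG00000171608.15) lies on chromosome 1 from 9651732 to 9729114, and PIK3CG (ENSG00000105851.10) on chromosome 7 from 106865278 to 106907145, both on the forward strand. PIK3R1 (ENSG00000145675.14) lies on chromosome 5 from 68215720 to 68301821 and PIK3R2 (ENSG00000105647.16) on chromosome 19 from 18153118 to 18170540, both on the forward strand. PIK3R5 (ENSG00000141506.13, chromosome 17 from 8878911 to 8965712) and PIK3AP1 (ENSG00000155629.14, chromosome 10 from 96593312 to 96720514) lie on the reverse strand, and INPP5D (ENSG00000168918.13, chromosome 2 from 233059967 to 233207903) on the forward strand. All 9 are protein-coding.

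The promoters of the members with the highest log2 ratio, PIK3R1, and with the lowest log2 ratios, PIK3CG and PIK3AP1, are shown because they differ in base composition. They come from RefSeq on GRCh38.p14, which held 16 start sites for the 9 members, and each was read over the 250 bases before the first start site of the gene. Only the stretch that lies before any exon of GENCODE release 29 is printed, 5′ to 3′ on the strand of the gene, with CG dinucleotides in capitals. The stretch for PIK3R1 is chr5:68215506-68215719, that for PIK3CG is chr7:106865229-106865277, and that for PIK3AP1 is chr10:96720515-96720764 on the reverse strand.
PIK3R1: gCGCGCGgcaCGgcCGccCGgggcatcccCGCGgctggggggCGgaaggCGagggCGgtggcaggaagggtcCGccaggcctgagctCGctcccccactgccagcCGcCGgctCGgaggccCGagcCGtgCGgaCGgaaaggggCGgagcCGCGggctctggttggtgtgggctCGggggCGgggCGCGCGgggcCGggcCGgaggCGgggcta
PIK3CG: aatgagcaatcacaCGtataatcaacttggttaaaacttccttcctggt
PIK3AP1: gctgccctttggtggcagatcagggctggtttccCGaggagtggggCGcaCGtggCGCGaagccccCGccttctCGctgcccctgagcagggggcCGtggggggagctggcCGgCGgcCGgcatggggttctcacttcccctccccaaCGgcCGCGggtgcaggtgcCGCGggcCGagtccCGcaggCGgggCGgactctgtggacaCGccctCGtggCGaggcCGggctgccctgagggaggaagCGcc
Over the full 250 bases, PIK3R1 held 37 CG dinucleotides and 81.6% G or C, PIK3AP1 held 25 and 75.2%, and PIK3CG held 6 and 41.2%, beside medians of 11 and 58.0% over 35116 RefSeq promoters. PIK3CG was thus the most CG-poor of these windows, but only 49 of its 250 bases lie before any annotated exon. PIK3AP1 and PIK3R1 both lay above the median although their log2 ratios had opposite signs. The first windows of PIK3CB and PIK3R2, also lower with Dox, held 27 and 30 CG dinucleotides, and that of INPP5D held 9. PIK3CA, which was higher with Dox as PIK3R1 was, held 15 CG dinucleotides and 57.6% G or C, but its window lies almost wholly within an annotated exon and is not printed. The letters GGGCGG, a GC box read on both strands, occurred 5 times in the PIK3R1 window, 1 time each in those of PIK3CA and PIK3AP1 and 0 times in that of PIK3CG. They occurred at least once in 42.6% of all promoters and 3 or more times in 13.9%. The first windows of PIK3R5, PIK3CB, PIK3R2, PIK3CD and INPP5D held 4, 3, 2, 1 and 0, so PIK3CB, lower with Dox, also held 3. PIK3R1 has 3 further RefSeq start sites, whose windows held 18, 2 and 3 CG dinucleotides, and the gene tables do not separate them.

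Among the catalytic subunits, the library labelled without Dox held similar FPKM for 3 genes and the library labelled with Dox was led by PIK3CA alone. PIK3CA, which encodes the widely expressed alpha subunit, had 8.30 FPKM without Dox and 13.85 FPKM with Dox. PIK3CB, which encodes the widely expressed beta subunit, had 9.10 and 6.35 FPKM, and PIK3CG had 7.77 and 2.08 FPKM. Without Dox these 3 levels were close to each other, and the 95% counting interval of PIK3CA, 7.94 to 8.67 FPKM, overlapped that of PIK3CG, 7.37 to 8.19 FPKM, and that of PIK3CB, 8.56 to 9.66 FPKM. The intervals of PIK3CB and PIK3CG did not overlap each other. With Dox the intervals of 13.4 to 14.3 for PIK3CA, 5.94 to 6.78 for PIK3CB and 1.87 to 2.31 for PIK3CG did not overlap. They are Clopper-Pearson intervals of the expected counts, an exact binomial method, and hold counting error alone. They leave out error in the estimated mean transcript length by which counts are divided. Without Dox PIK3CA had 1986.51 counts at 5456.24 bases, PIK3CB 1078 at 2822.90 bases and PIK3CG 1395 at 4154.64 bases. The order and the FPKM shares of these genes therefore rest on the length estimates too. PIK3CD, which encodes the delta subunit found mainly in white blood cells, had 0.90 FPKM without Dox and 0.84 FPKM with Dox, the lowest catalytic level in both libraries.

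As a share of the summed FPKM of the 4 catalytic genes, PIK3CA took 31.8% without Dox and 59.9% with Dox. PIK3CB took 34.9% and 27.5%, and PIK3CG took 29.8% and 9.0%. PIK3CD held 3.45% and 3.63%, so its share was nearly the same in both libraries while those of the others were not. The sum itself was 26.07 FPKM without Dox and 23.12 FPKM with Dox, a log2 ratio of -0.17. The leading gene without Dox depends on the measure. PIK3CB led by FPKM, whereas by expected counts, which are not divided by length, PIK3CA held 42.8% (95% counting interval 41.4 to 44.2) without Dox and 72.1% (70.8 to 73.3) with Dox. Within class IA alone, PIK3CA held 45.4% and 65.8% of the summed FPKM and PIK3CB held 49.7% and 30.2%.

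Among the regulatory subunits, PIK3R1 and PIK3R2 were level without Dox and PIK3R1 led with Dox. PIK3R1, which encodes the alpha regulatory subunit and its shorter forms, had 9.33 FPKM without Dox and 15.99 FPKM with Dox. PIK3R2, which encodes the beta regulatory subunit, had 9.58 and 6.89 FPKM. Their counting intervals overlapped without Dox, at 8.92 to 9.75 for PIK3R1 and 9.12 to 10.1 for PIK3R2, and were apart with Dox, at 15.5 to 16.5 and 6.51 to 7.29. PIK3R1 therefore took 49.3% of the summed FPKM of the regulatory members without Dox and 69.9% with Dox. PIK3R5 was listed with 0 counts in both libraries, which allows up to 0.0653 and 0.0616 counts per 1000000. Counted with the members, PIK3R3, another class IA regulatory gene at 1.05 and 1.97 FPKM, brought the share of PIK3R1 to 46.7% and 64.3%. PIK3R6, the other class IB regulatory gene, had 0 counts without Dox and 1 count with Dox, so both genes for partners of the class IB catalytic subunit were at or near 0 while PIK3CG itself had 1395 and 345 counts.

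**Figure D1:**
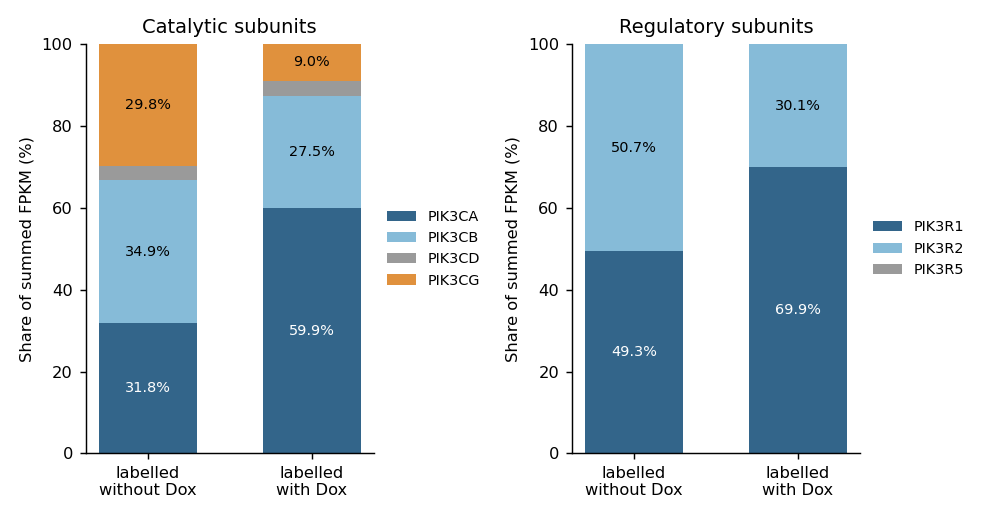
Stacked bars of the share of the summed FPKM, in percent, held by each catalytic member (left) and each regulatory member (right) in the library labelled without Dox and the library labelled with Dox, 1 library each. PIK3CA goes from 31.8% to 59.9% and PIK3R1 from 49.3% to 69.9%, while PIK3CG goes from 29.8% to 9.0%; PIK3CD is drawn without a number and PIK3R5 is at 0.

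The same shift appears as ratios within a library, which do not depend on how the 2 libraries are scaled to each other. The ratio of PIK3CA to PIK3CB FPKM was 0.912 without Dox and 2.18 with Dox. The ratio of PIK3R1 to PIK3R2 was 0.974 and 2.32. In both pairs the ratio thus passed from just under 1 to above 2, with log2 differences of 1.26 and 1.25. The ratio of PIK3CA to PIK3CG was 1.07 and 6.66. The summed FPKM of the class IA catalytic genes was 18.30 without Dox and 21.04 with Dox, and that of PIK3R1 and PIK3R2 was 18.91 and 22.88. Catalytic RNA over regulatory RNA of class IA was accordingly 0.968 and 0.920, close to 1 in both libraries, although the leading gene on each side was not the same.

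INPP5D, the phosphatase, had the highest level of the 9 members in both libraries. It was listed with 21.15 FPKM without Dox and 18.05 FPKM with Dox, from 4296 and 3989 expected counts. Its counting intervals of 20.5 to 21.8 and 17.5 to 18.6 FPKM lay above those of all other members in the same library. Its level was 2.55 times that of PIK3CA without Dox, and on the log2 scale this ratio differed by -0.97 with Dox. PIK3AP1, the adaptor, had 5.15 FPKM without Dox and 2.69 FPKM with Dox, from 914 and 513 counts. Its level was below those of PIK3CA, PIK3CB, PIK3R1 and PIK3R2 in both libraries, and it was below that of PIK3CG without Dox and above it with Dox.

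In order of FPKM, the members without Dox were INPP5D, PIK3R2, PIK3R1, PIK3CB, PIK3CA, PIK3CG, PIK3AP1, PIK3CD and PIK3R5. The intervals of PIK3R2, PIK3R1 and PIK3CB overlapped each other there, as did those of PIK3CB and PIK3CA and those of PIK3CA and PIK3CG. The order of these neighbours was thus not resolved by the counts. With Dox the order was INPP5D, PIK3R1, PIK3CA, PIK3R2, PIK3CB, PIK3AP1, PIK3CG, PIK3CD and PIK3R5. There PIK3R2 and PIK3CB were the only neighbours whose intervals overlapped.

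**Figure D2:**
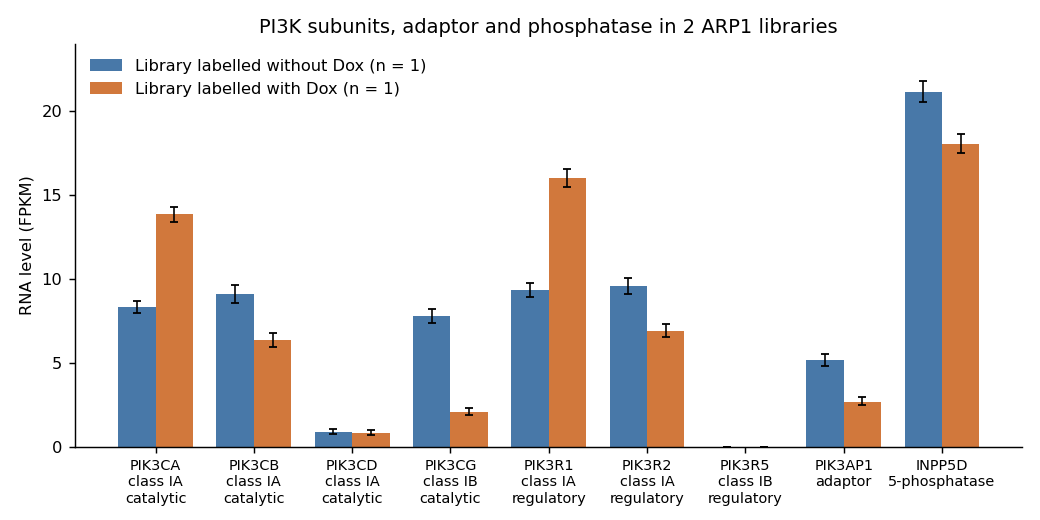
RNA level in FPKM of the 9 members in the library labelled without Dox and the library labelled with Dox, 1 library each, with bars from 0 and 95% counting intervals that carry no replicate error. INPP5D is highest at 21.15 and 18.05 FPKM, PIK3CA and PIK3R1 are higher with Dox, PIK3CG is at 7.77 and 2.08 FPKM, and PIK3R5 is at 0.

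Set between the libraries, 2 members were higher and 5 were lower with Dox among the 7 members that reached 1 FPKM in at least 1 library. For each ratio 0.1 FPKM was added to both values before the log2 was taken, so the differences of low genes are understated, and a gene was counted past 2-fold beyond 1 or -1 on this scale. Among the 14859 genes that reached 1 FPKM in at least 1 library, 2521 (17.0%) were past 2-fold higher with Dox and 953 (6.41%) past 2-fold lower, and 23.4% were past 2-fold in either direction. Of the 7 members, 0 were past 2-fold higher and 1 was past 2-fold lower, which is 14.3% of 7 and a count too small to be set apart from these shares. The median log2 ratio of the 7 members was -0.47, beside 0.15 over all 14859 genes, of which 41.5% were below 0. With 7 members this median is the ratio of 1 gene, PIK3R2. The member median lay between -0.68 and -0.32 over the other settings tried, and 7 genes are too few to set it apart. PIK3CD and PIK3R5 were under 1 FPKM in both libraries and were not counted.

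PIK3CG was the member past 2-fold, with 7.77 FPKM without Dox and 2.08 FPKM with Dox, a log2 ratio of -1.85 (counting interval -2.03 to -1.68) or 3.61-fold lower. Only 1.43% of the 14859 genes had a lower ratio. PIK3AP1 was next, at -0.91 (-1.07 to -0.75), and its interval reached past 2-fold. PIK3CB and PIK3R2, the beta subunits of the catalytic and regulatory sets, had nearly the same ratio, at -0.51 (-0.64 to -0.38) and -0.47 (-0.58 to -0.36). INPP5D was lower by a smaller amount, at -0.23 (-0.29 to -0.17). PIK3CA and PIK3R1, the alpha subunits, also had nearly the same ratio as each other, at 0.73 (0.65 to 0.81) from 1986.51 and 3715.76 counts and at 0.77 (0.69 to 0.85) from 1991 and 3423 counts. These values lay above those of 75.8% and 77.2% of the 14859 genes, so that differences of this size were common in these libraries. PIK3CD, at -0.09 (-0.39 to 0.21) from 183 and 184 counts, did not differ beyond counting error.

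The number of members past 2-fold depends on how the libraries are scaled. The trimmed mean of M values (TMM) factors of edgeR moved the median ratio of all genes from 0.15 to -0.07 and the size factors of DESeq2 moved it to -0.05, and 54.2% and 56.6% of the genes past 2-fold were then higher with Dox, beside 72.6% with the FPKM as deposited and 79.0% with TPM (transcripts per 1000000). With either set of factors, and with the ratios centred on the median of all genes, PIK3AP1 also passed 2-fold, so that 2 members were lower by this rule. The ratio of PIK3CG lay between -2.25 and -1.51, that of PIK3CA between 0.52 and 0.83 and that of PIK3R1 between 0.48 and 0.87 over the 9 other settings tried.

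**Figure D3:**
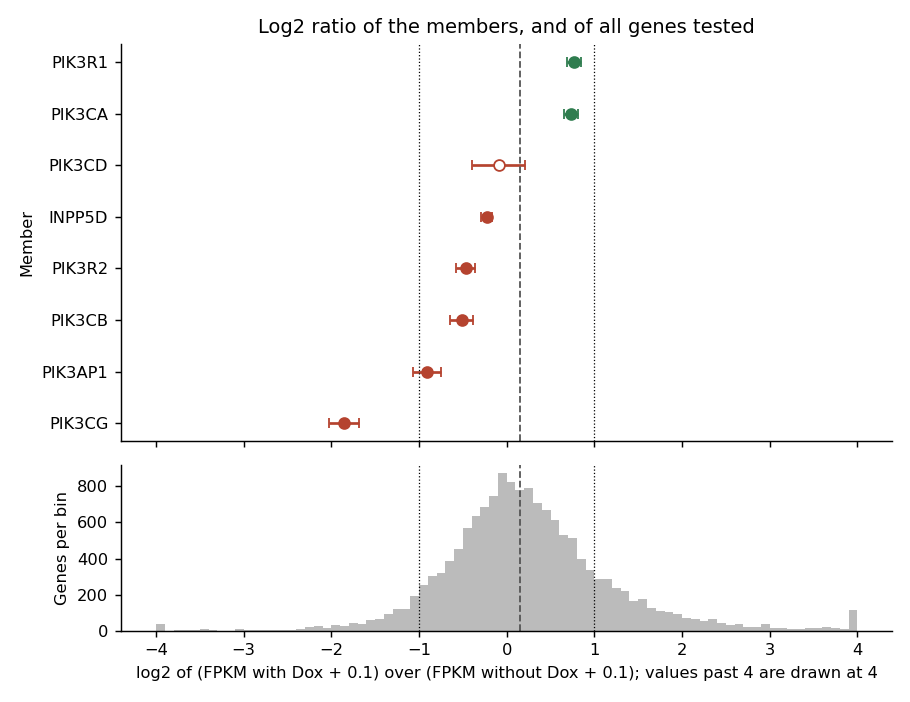
Log2 ratio of FPKM with Dox over FPKM without Dox for the 8 members with counts (top; bars are 95% counting intervals, red below 0, green above 0, open symbol for PIK3CD under 1 FPKM) and for all 14859 genes that reached 1 FPKM (bottom, in genes per bin). Dotted lines mark 2-fold and the dashed line the median of all genes, 0.15; PIK3CG stands at -1.85, beyond the 2-fold line, while PIK3R1 and PIK3CA stand at 0.77 and 0.73.

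Each table also gives the mean transcript length of a gene, weighted by the estimated abundance of its transcripts, which bears on FPKM because counts are divided by it. For PIK3CB the mean length was 2822.90 bases without Dox and 3188.99 bases with Dox, a log2 difference of 0.18. This was larger in size than for 86.7% of the 12777 genes that reached 1 FPKM in at least 1 library and had at least 50 counts in each. For PIK3CG it was 4154.64 and 3655.24 bases, a log2 difference of -0.18, larger in size than for 87.6% of these genes. The mean length of PIK3CB was thus longer, and that of PIK3CG shorter, in the library labelled with Dox. These values bound the share of the longest annotated transcript. The PIK3CB transcript of 5919 bases and 22 exons (ENST00000289153.6) could make up at most 42.4% of PIK3CB molecules without Dox and 49.2% with Dox, and the rest must be shorter transcripts, with 14 transcripts listed in all, down to 542 bases. With the mean length of the 2 libraries used for both, the ratio of PIK3CB was -0.32 in place of -0.51. That of PIK3R2 was then -0.47, and those of PIK3CA and PIK3R1 were 0.81 and 0.69. The 2 alpha subunits and the 2 beta subunits were thus less alike in ratio under this setting. The log2 length differences were 0.08 for PIK3CA and -0.08 for PIK3R1, and at most 0.04 in size for PIK3CD, PIK3R2, PIK3AP1 and INPP5D. No transcript levels were used here, so which transcripts differ was not tested.

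Some members share exon sequence with another gene. PIK3CD overlaps exons of CLSTN1 on the opposite strand, a gene with 6167 and 4995 counts beside the 183 and 184 of PIK3CD. PIK3CA overlaps exons of KCNMB3 on the opposite strand, which had 96.73 and 149.53 counts, few beside those of PIK3CA. PIK3R2 overlaps exons of the annotated gene AC007192.1 on its own strand, so the strand would not separate reads of that overlap. No counts were listed under the symbol AC007192.1. Whether the counting used the strand is not given in the sources used here, so reads of the overlaps on opposite strands cannot be told apart either. The low level of PIK3CD is uncertain for this reason.

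The ratio of PIK3CG was not shared by the genes around it. Of the genes within 500 kb, 3 reached 1 FPKM, namely CCDC71L, HBP1 and COG5, and their log2 ratios lay between 0.81 and 1.15. Around PIK3AP1 the 3 such genes, ZNF518A, TM9SF3 and LCOR, lay between 0.25 and 1.33. Both members were thus lower with Dox among neighbours with ratios above 0. Of the 14859 genes, however, only 41.5% were below 0 and only 1.43% were below PIK3CG. Sets of 3 neighbours are too small to be set apart from these shares. The 8 such genes around PIK3CA lay between -0.77 and 0.71 and the 6 around PIK3CB between -0.18 and 1.05, and 0 genes around PIK3R1 reached 1 FPKM. PIK3R2 was lower, and its 24 such neighbours had a median of -0.29, with 3 past 2-fold lower and 0 higher. Over all genes, 6.41% were past 2-fold lower and 17.0% higher. The 10 around PIK3CD lay between -1.22 and 1.54 and the 4 around PIK3R5 between -0.67 and 0.27. The 7 around INPP5D lay between -4.55 and 1.22, with a median of 0.0052, 2 past 2-fold lower and 1 higher.

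The other genes of the pathway were taken as 5 lists, and of their 46 genes 35 reached 1 FPKM, of which 7 were past 2-fold higher and 1 past 2-fold lower with Dox. The median log2 ratio of these 35 was 0.12, beside 0.15 over all genes and -0.47 over the members, which were too few to be set apart. The 7 higher genes are 20.0% of the 35 and the 1 lower gene is 2.86%, beside 17.0% and 6.41% of all genes.

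The class II and class III PI3K genes make other phosphoinositides and serve vesicle traffic and autophagy. Of these 5 genes 4 reached 1 FPKM, with a median of 0.56. PIK3C2A, a class II kinase of endocytosis, had 15.62 FPKM without Dox and 43.61 FPKM with Dox, a log2 ratio of 1.48 (1.42 to 1.53). Without Dox its level was already above that of every member except INPP5D, and with Dox it was above that of every member. PIK3C3, the class III kinase, had 12.62 and 17.92 FPKM, and PIK3R4, which encodes its regulatory partner, had 15.30 and 10.01 FPKM, with log2 ratios of 0.50 and -0.61.

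Of the 14 receptors, adaptors and inhibitors that feed PI3K, 11 reached 1 FPKM, with a median of 0.35, 3 past 2-fold higher and 0 lower. IL6ST, the signaling chain of the interleukin-6 receptor, on which many MM cells depend, had 26.72 FPKM without Dox and 67.03 FPKM with Dox, a log2 ratio of 1.32 (1.28 to 1.37). GAB2, an adaptor that docks class IA regulatory subunits, had 1.80 and 10.31 FPKM, a log2 ratio of 2.45 (2.31 to 2.60). INSR, the insulin receptor, had 4.05 and 8.74 FPKM, a log2 ratio of 1.09, but was not past 2-fold with the TMM factors, at 0.88, with a pseudocount of 1 FPKM, at 0.95, or with the ratios centred on the median of all genes, at 0.94. IGF1R, the related receptor for insulin-like growth factor, had 11.79 and 7.97 FPKM, a log2 ratio of -0.56. The 2 receptor genes thus stood on opposite sides of 0.

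Of the 12 other phosphoinositide phosphatases examined, 9 reached 1 FPKM, with a median of 0.31, 1 past 2-fold higher and 0 lower. INPPL1, the paralog of INPP5D, was the highest of them at 69.54 FPKM without Dox and 86.32 FPKM with Dox, above INPP5D in both libraries, with a log2 ratio of 0.31 (0.27 to 0.36) beside -0.23 for INPP5D. INPP5B, a related phosphatase of endomembranes, had 8.71 and 20.68 FPKM, a log2 ratio of 1.24 (1.14 to 1.33) that was 0.84 with the DESeq2 size factors.

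Of the 13 proteins examined that bind the PI3K product, 10 reached 1 FPKM, with a median of -0.20, 2 past 2-fold higher and 1 lower. AKT2 was the highest at 119.09 FPKM without Dox and 122.98 FPKM with Dox, a log2 ratio of 0.05 that was below 0 with the TMM and DESeq2 factors, with mean effective lengths and with centring. AKT1 had 40.18 and 29.45 FPKM, below AKT2 in both libraries. PREX1, an exchange factor for Rac GTPases that the PI3K product and G proteins activate, had 5.83 and 15.83 FPKM, a log2 ratio of 1.43 (1.34 to 1.51). The other 2 genes past 2-fold were low and were chosen for mention after their values were seen. BTK, a tyrosine kinase of B cell receptor signaling, had 0.21 and 1.63 FPKM from 24 and 165 counts, and PLCG2, the phospholipase it activates, had 3.57 and 1.35 FPKM, with log2 ratios of 2.48 and -1.34.

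**Figure D4:**
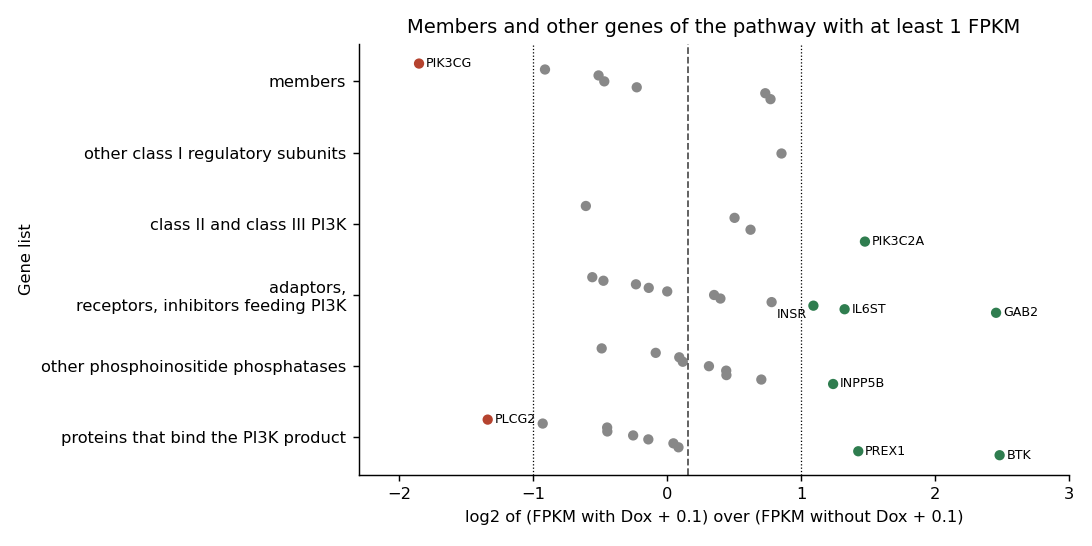
Log2 ratio of FPKM with Dox over FPKM without Dox for the 7 members and the 35 genes of 5 pathway lists that reached 1 FPKM, 1 point per gene; dotted lines mark 2-fold and the dashed line the median of all genes, 0.15. PIK3CG at -1.85 is the lowest point, and GAB2, BTK, PIK3C2A, PREX1, IL6ST, INPP5B and INSR, drawn in green, lie above 1.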

How the data were processed

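Poly(A) RNA of ARP1 cells with an inducible hairpin was sequenced, with 1 library per Dox state. The authors deposited expected counts, TPM, FPKM and mean transcript lengths per gene, in the layout that RSEM writes. The authors deposited TPM values that sum to 1000000 and 999999, and the deposited FPKM values sum to 911506 and 852316. The submitters' processing notes list Bowtie 0.12.2, HISAT2 2.1.0, StringTie 1.3.4d and hg19 with no role, while 202888 of 204675 transcripts match GENCODE release 29, whose GRCh38 coordinates are given. Other settings are not given in the sources used here.

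Log2 ratios used a pseudocount of 0.1 FPKM and genes with at least 1 FPKM in 1 library. With 1 library per condition the spread cannot be estimated, so no test was run. Intervals are 95% Clopper-Pearson intervals of the expected counts without rounding, and cover counting error only. edgeR 4.0.16 and DESeq2 1.42.0 in R 4.3.3 gave scaling factors alone, from expected counts rounded to whole numbers. Python 3.11.15, pandas 2.3.3, numpy 2.4.6, scipy 1.17.1 and matplotlib 3.10.9 served for the rest, and the ratios were tested on simulated data. Named are the members, SRD5A1, and per list the gene of highest mean FPKM and those past 2-fold with at least 5 FPKM. PIK3R4, PIK3C3, IGF1R, AKT1 and the other genes named beside them were chosen after their values were seen. Members, lists and motifs were chosen with earlier results of these data known, and 3 genes first listed are not reported here.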

Additional observations from a re-analysis of the deposited data

How the results depend on the processing

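No paired analysis was possible because neither condition has a second library, and none could be left out. Over 9 alternatives for the 18 named genes with counts in both libraries, 94 of 162 ratios stayed within their counting interval, 68 moved beyond it and 0 of the ratios past 2-fold changed sign. Ratios past 2-fold lie far from 0, so that last count is a weak check. Ratios nearer 0 were outside it, and those of AKT2 and PIK3CD changed sign in some alternatives. The alternatives that changed only the filter on low values could not move the ratio of a gene, and their ratios are counted among the 94. With 1 FPKM as pseudocount, 1606 genes were higher and 0 pathway genes lower. With no filter on low values, 4735 genes were higher and 1897 lower, and the medians were -0.35 for members and 0.30 for pathway genes. With at least 5 FPKM, 1256 genes were higher and 603 lower, 0 pathway genes were lower and their median was 0.35. With the TMM factors, 1570 genes, 2 members and 2 pathway genes were lower, and the medians were -0.68 for members and -0.0966 for pathway genes. With the DESeq2 size factors, 1453 genes, 2 members and 2 pathway genes were lower. With mean effective lengths the medians were -0.32 and 0.35, respectively. By expected counts, PIK3CA held 42.8% and 72.1% of its class and PIK3R1 55.6% and 73.8%, without and with Dox. In alternatives chosen after seeing the data, centring on the median of all genes gave 2 lower members, 2 lower pathway genes and medians of -0.62 and -0.0365, and adding PIK3R3 gave PIK3R1 46.7% and 64.3%. The ratio of PIK3CD was 0.01 with TPM. Depth limits PIK3R5, PIK3R6 and BTK.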

Other observations

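The kinases that make the substrate of class I PI3K were examined as a list of 9 genes chosen after the data had been seen. All 9 reached 1 FPKM and had a median log2 ratio of -0.09, with 1 past 2-fold higher with Dox and 0 past 2-fold lower. PIP5K1B, a kinase that makes this substrate, had 4.55 FPKM without Dox and 11.40 FPKM with Dox, a log2 ratio of 1.31 (counting interval 1.16 to 1.46). PIP5K1A, which encodes the related kinase of the alpha type, had 72.61 and 62.96 FPKM, a log2 ratio of -0.21, and stayed the higher of the 2. PIP4K2A, a kinase that makes the same lipid by another route, had the highest level of the list in both libraries, 197.51 FPKM with Dox, and a log2 ratio of 0.40. PI4KA and PI4KB, which act 1 step before, had log2 ratios of -0.19 and -0.21, while PI4K2B, at 9.19 and 15.59 FPKM, had 0.76.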
